A study of Homo sapiens with 12 samples.

Results

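Genes of the transforming growth factor beta (TGF-beta) pathway were followed through replicative senescence at the level of mRNA and of ribosome occupancy. The members were taken by symbol as listed and comprised 10 of the 16451 genes with at least 1 coding read: the ligands TGFB1, TGFB2, TGFB3, INHBA and BMP4, the secreted antagonist GREM1, the latency proteins LTBP1 and LTBP2, and the receptors TGFBR1 and TGFBR2. All 10 symbols were found in the tables. The cells were IMR90, a line of human lung fibroblasts without known disease, grown with no added agent named in the labels and either proliferating (Pro) or passaged until replicative exhaustion (Sen). Each state had 3 independently grown replicates. Every lysate was split into a Ribo-seq and an RNA-seq library, so there were 12 libraries in 4 groups of 3. The labels mention 2 isolates but tie neither to a sample, and the RNA-seq tables of Pro cells carry a tag resembling a solvent name that the labels do not mention, so isolate or solvent effects cannot be told apart from the state.

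TGF-beta ligands are secreted in a latent form, bound to their own propeptide and tethered to the matrix by latent TGF-beta binding proteins (LTBPs), and have to be released before they act. Active ligand is bound by the type II receptor TGFBR2, which phosphorylates the type I receptor TGFBR1, and SMAD proteins carry the signal to the nucleus. Activins and bone morphogenetic proteins (BMPs) are relatives that use other receptors of the same family. In fibroblasts the pathway is known for driving matrix synthesis, contractile genes and growth arrest, and its ligands belong to the secretome of senescent cells.

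Between 7902427 and 14144455 reads per RNA-seq library fell in mRNA regions. Coding reads of the Ribo-seq libraries ranged from 54421 (Pro 1) and 54708 (Sen 2) to 1718521 (Pro 3). In the shallow libraries Pro 1 and Sen 2, 3 reads corresponded to 55.1 and 54.8 CPM (counts scaled to library size, the edgeR unit), so that a footprint level there often rests on a few reads. Coding reads made up 34.4%, 84.4% and 88.8% of the assigned Ribo-seq reads in Pro 1, 2 and 3. In Sen 1, 2 and 3 they made up 77.8%, 15.0% and 54.7%. Whether these unequal shares affect the footprint comparisons was not tested. The 9 fibroblast markers examined summed to 28240 to 31760 CPM of mRNA in Pro and 26730 to 29970 CPM in Sen libraries, and none was at 0. Leukocyte markers summed to at most 1.32 CPM. Epithelial markers summed to 32.0 to 32.3 CPM in Pro and 19.4 to 23.7 CPM in Sen, almost all of it KRT8, with 2 of 6 genes at 0. Endothelial markers summed to 54.4 to 62.1 CPM and 93.8 to 105.6 CPM, almost all of it TEK, with CDH5 at 0. The part of other cells in the results was not tested. Of 7 state markers, CDKN1A and CDKN2A rose and LMNB1, MKI67, CCNA2, HMGB1 and HMGB2 fell in mRNA.

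The sequences around the annotated start codon of 4 ligands are shown because these ligands held very different numbers of footprints per mRNA read (given below). Each run covers 20 bases of the canonical GENCODE transcript on GRCh37, 5′ to 3′ on the coding strand, and the capitals mark the bases from position -3 to position +4 with the A of ATG as +1.
TGFB1: gccgcctccCCCATGCcgcc
TGFB2: cttttttaaAAAATGCacta
INHBA: tttgctgccAGGATGCcctt
BMP4: tgtcaagacACCATGAttcc
The start codons lie on the minus strand of chr19:41858947-41858949 (TGFB1), the plus strand of chr1:218520044-218520046 (TGFB2), the minus strand of chr7:41739970-41739972 (INHBA) and the minus strand of chr14:54418938-54418940 (BMP4). A purine at -3 and a G at +4 are textbook features of an efficient start. Of these 4, TGFB1 alone lacked the purine, and none had the G. Among all 10 members 8 had the purine, against 86.1% of 19030 canonical coding transcripts, and 3 had the G (LTBP1, TGFBR1 and TGFBR2), against 51.4%. The annotated 5′ UTR was 878 bases long in TGFB1, 1366 in TGFB2, 1102 in TGFB3, 229 in INHBA and 408 in BMP4, while the median over all these transcripts was 133. At least 1 ATG upstream of the start was present in 5 of the 10 members, against 41.9% of transcripts, with 11 in TGFB3, 5 in BMP4, 2 each in TGFB2 and INHBA, and 0 in TGFB1. A link of start context, 5′ UTR length or upstream ATGs with the footprints per mRNA read was not tested.

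All 10 members passed the mRNA test, 6 higher and 4 lower in Sen. This has to be read against a background in which 73.6% of the 12787 genes tested were called, 36.6% higher and 37.0% lower. TGFBR2, TGFB2 and INHBA stood out by size, with rises of 4.98-, 3.81- and 3.68-fold, while TGFB3 and GREM1 fell. The values of the 3 Pro and 3 Sen libraries did not overlap for 9 members, where the background was 67.8%. The median mRNA log2 fold change was 0.31 over the members and -0.01 over all genes tested. In these bulk samples, fewer cells of a kind and less RNA per cell cannot be told apart.

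Ribosome-protected fragments (RPF, coding reads of Ribo-seq) could be tested for 9 members, since TGFB3 had 2 RPF reads over all Pro and 0 over all Sen libraries. TGFB2, INHBA, LTBP2 and TGFBR2 were higher, GREM1 and TGFBR1 were lower, and TGFB1, BMP4 and LTBP1 did not pass. Across all 7521 genes tested 54.4% were called, 27.5% higher and 26.9% lower. Groups did not overlap for 4 members (TGFB2, INHBA, LTBP2 and TGFBR2), against 32.5% of genes. The median RPF log2 fold change was 0.24 over the 9 members and -0.003 over all genes.

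**Figure D1:**
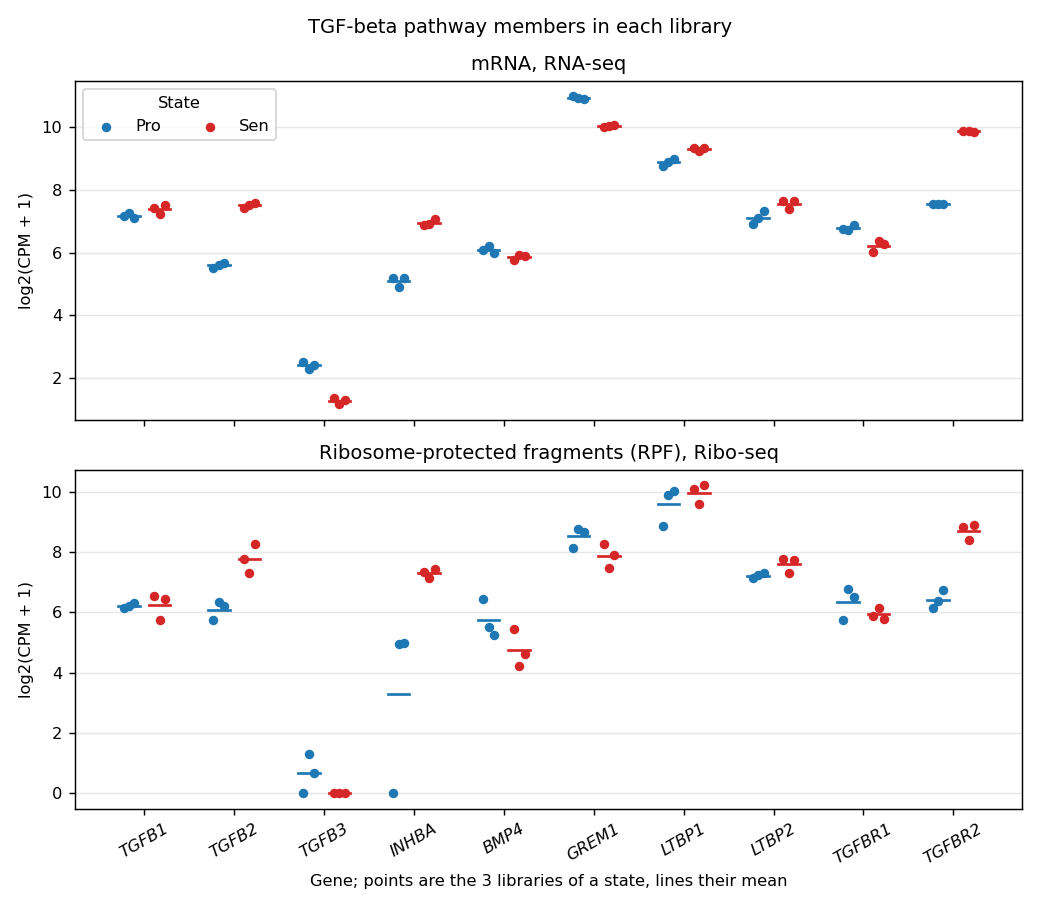
Level of each member in each library, as log2(CPM + 1), for mRNA (top) and RPF (bottom), with points for the 3 Pro and 3 Sen libraries and a line at their mean. TGFB2, INHBA and TGFBR2 separate upward in both panels, and the low INHBA point in the lower panel is the shallow library Pro 1, with 0 reads.

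TGFB1, the most widely expressed of the 3 TGF-beta isoforms, changed little. Its mRNA stood at 141.8, 153.1 and 137.8 CPM in Pro 1, 2 and 3 and at 169.1, 150.3 and 183.7 CPM in Sen 1, 2 and 3. Sen 2 lay within the range of the Pro libraries, so the groups overlapped. The mRNA log2 fold change was 0.22 (SE 0.08, edgeR adjusted p = 0.0204). It was 0.11 without TMM scaling (adjusted p = 0.224) and 0.13 without Sen 3 (adjusted p = 0.136). RPF stood at 69.4, 72.7 and 77.5 CPM in Pro and 92.5, 52.7 and 85.5 CPM in Sen, with 4 reads in Pro 1 and 3 reads in Sen 2. The RPF groups overlapped as well, and the log2 fold change of 0.23 had an interval from -0.17 to 0.62 (95%, edgeR adjusted p = 0.368).

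TGFB2, the isoform with low affinity for TGFBR2 in the absence of a co-receptor, rose in both layers. TGFB2 mRNA was 44.8, 48.0 and 49.5 CPM in Pro and 170.0, 181.0 and 191.6 CPM in Sen, so that every Sen library was over 3 times as high as any Pro library. The mRNA log2 fold change was 1.93 (SE 0.08, edgeR adjusted p = 3.51e-15). RPF levels were 52.1, 80.1 and 72.1 CPM in Pro and 216.4, 158.2 and 305.2 CPM in Sen. The groups did not overlap, although the shallow libraries contributed 3 and 9 reads. RPF rose by 1.72 on the log2 scale (SE 0.19, edgeR adjusted p = 1.92e-12). An antisense transcript, TGFB2-AS1, and a same-strand transcript within the 3′ end, TGFB2-OT1, overlap exons of the gene, and no strand rule is given in the sources used here.

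TGFB3, the third isoform, was expressed at a few CPM and fell. Its mRNA counted 39, 46 and 47 reads (4.76, 3.93 and 4.38 CPM) in Pro and 15, 17 and 16 reads (1.60, 1.25 and 1.46 CPM) in Sen. The groups were well apart, and mRNA decreased by 1.60 on the log2 scale (SE 0.22, edgeR adjusted p = 1.14e-06). With coding reads alone the decrease was smaller, at -0.98. Exons of the antisense gene TGFB3-AS1 overlap those of TGFB3. With 2 RPF reads in all, a change of TGFB3 footprints was not detectable at this depth.

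INHBA encodes the activin beta A subunit, whose dimer is activin A. The mRNA was 35.6, 29.2 and 35.5 CPM in Pro and 116.1, 118.2 and 133.4 CPM in Sen. All Sen libraries were over 3 times as high as the Pro libraries, with a log2 fold change of 1.88 (SE 0.09, edgeR adjusted p = 5.77e-14). RPF counted 0, 20 and 51 reads in Pro (0, 29.7 and 30.4 CPM) and 237, 8 and 88 reads in Sen (158.8, 140.6 and 171.1 CPM). Even the 8 reads of the shallow library Sen 2 placed it beside the deeper Sen libraries. The RPF log2 fold change of 2.46 (SE 0.22, edgeR adjusted p = 7e-16) was the largest of the 9 members tested and ranged from 2.36 to 2.58 when a lysate was left out.

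BMP4, a ligand of the BMP branch, declined slightly in mRNA. It stood at 66.2, 72.7 and 62.2 CPM in Pro and 53.8, 60.2 and 58.8 CPM in Sen. The groups did not overlap, but they came within 2 CPM of each other. The mRNA log2 fold change of -0.22 (SE 0.08, edgeR adjusted p = 0.0224) was no longer past the threshold without Pro 2 (adjusted p = 0.171) or with coding reads alone (adjusted p = 0.206). RPF was 86.8, 44.5 and 36.96 CPM in Pro and 42.2, 17.6 and 23.3 CPM in Sen, with only 5 reads in Pro 1 and 1 read in Sen 2. The groups overlapped, and the log2 fold change of -0.21 had an interval from -0.78 to 0.36 (edgeR adjusted p = 0.583). It ranged from -0.84 (without Sen 1, adjusted p = 0.206) to -0.006 (without Sen 3) with a lysate left out, and the mean level was 56.1 ± 26.8 CPM in Pro and 27.7 ± 12.9 CPM in Sen.

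GREM1 (gremlin 1), which binds BMP2, BMP4 and BMP7 outside the cell and keeps them from their receptors, fell. Its mRNA was 2011, 1951 and 1889 CPM in Pro and 1030, 1042 and 1073 CPM in Sen, a reduction of 1.86-fold with narrow spread in both states. The log2 fold change was -0.895 (SE 0.07, edgeR adjusted p = 2.93e-10). RPF was 277.6, 433.3 and 401.8 CPM in Pro and 307.5, 175.8 and 239.1 CPM in Sen. The shallow Pro 1 (16 reads) lay below Sen 1, so the groups overlapped. RPF decreased by 0.57 on the log2 scale (SE 0.16, edgeR adjusted p = 0.00323). The call held without any single lysate, at -0.80 to -0.47. Exons of GREM1-AS1 overlap the gene on the other strand.

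LTBP1 and LTBP2 are large matrix proteins of the fibrillin family. LTBP1 binds latent TGF-beta covalently, whereas LTBP2 does not bind it and is known from elastic fibres. LTBP1 mRNA was 432.2, 476.8 and 508.5 CPM in Pro and 636.8, 606.5 and 641.7 CPM in Sen, a separated rise of 0.41 on the log2 scale (SE 0.07, edgeR adjusted p = 4.88e-05). RPF of LTBP1 was 468.5, 937.9 and 1040 CPM in Pro and 1090, 773.5 and 1178 CPM in Sen. Both low values were the shallow libraries, with 27 and 44 reads, and the groups overlapped. The RPF log2 fold change of 0.24 had an interval from -0.11 to 0.59 (edgeR adjusted p = 0.267), and the gene was called without Sen 2 (0.33, adjusted p = 0.0939). With a lysate left out the estimate ranged from 0.06 (without Pro 1, adjusted p = 0.742) to 0.45.

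LTBP2 mRNA was 119.6, 137.5 and 158.2 CPM in Pro and 197.8, 165.0 and 200 CPM in Sen, with a log2 fold change of 0.43 (SE 0.09, edgeR adjusted p = 0.000276). RPF was 138.8, 148.4 and 156.2 CPM in Pro and 215.7, 158.2 and 210.0 CPM in Sen. The groups did not overlap in either layer, though the highest Pro and lowest Sen RPF values nearly met. The RPF log2 fold change of 0.46 (SE 0.17, edgeR adjusted p = 0.0202) lost its call without Pro 2 (adjusted p = 0.191), without Pro 3 (0.151), without Sen 1 (0.162) and with DESeq2 (0.458). Long non-coding genes on the other strand overlap exons of both LTBP genes.

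The receptors moved in opposite directions. TGFBR1, the type I receptor kinase, had an mRNA of 107.9, 105.0 and 116.1 CPM in Pro and 63.9, 81.1 and 76.8 CPM in Sen. The groups were apart, and mRNA decreased by 0.56 on the log2 scale (SE 0.08, edgeR adjusted p = 4.19e-06). RPF was 52.1, 108.3 and 89.4 CPM in Pro and 57.6, 70.3 and 54.4 CPM in Sen. The groups overlapped through the shallow Pro 1 alone, with 3 reads, which lay below all 3 Sen libraries. RPF decreased by 0.72 (SE 0.21, edgeR adjusted p = 0.00363), a call that DESeq2 did not make (adjusted p = 0.402).

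TGFBR2, the type II receptor that binds ligand first, had the largest mRNA change of the members. It stood at 187.0, 188.1 and 184.5 CPM in Pro and 936.6, 934.7 and 912.6 CPM in Sen. The libraries of a state differed by under 3%, and the log2 fold change was 2.31 (SE 0.07, edgeR adjusted p = 4.88e-17). RPF was 69.4, 81.6 and 104.9 CPM in Pro and 453.5, 334.0 and 472.4 CPM in Sen. The lowest Sen library exceeded the highest Pro library by over 3 times, and RPF rose by 2.24 on the log2 scale (SE 0.17, edgeR adjusted p = 1.83e-18).

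**Figure D2:**
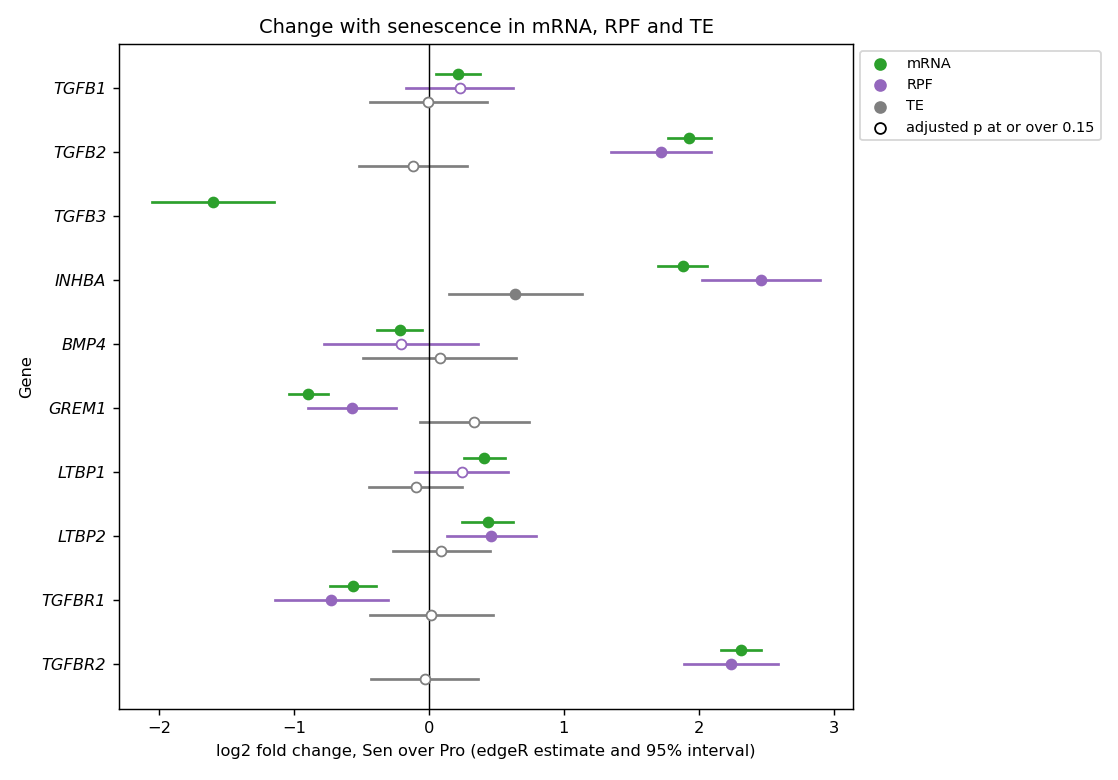
Change of each member as the edgeR log2 fold change of Sen over Pro, with its 95% interval, for mRNA, RPF and translational efficiency (TE), where open circles did not pass the adjusted p of 0.15. mRNA and RPF estimates lie close together for most members, and the INHBA estimate is the only filled TE point.

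Translational efficiency (TE) compares RPF with mRNA of the same lysate. Its change is the difference of the RPF and mRNA log2 fold changes within 1 model over 12 libraries, with the lysate as a block. That fit is separate from those above, so its estimates need not equal the gap between their fold changes. For TGFBR1 the TE change was 0.02, while the separate fits gave -0.72 for RPF and -0.56 for mRNA. INHBA alone of 9 members tested passed, with a TE change of 0.64 (SE 0.25, edgeR adjusted p = 0.132). The background was 10.0% of 7473 genes, with 6.32% higher and 3.73% lower. TE of INHBA (log2 ratio after adding 0.5 to each count) was -2.04 in Pro 1, 0.06 in Pro 2 and -0.21 in Pro 3, while the 3 Sen lysates had 0.45, 0.34 and 0.37. The low value is the library with 0 reads, and groups did not overlap for INHBA alone, against 16.2% of genes. Without Pro 1 the change was 0.51 and no longer called (adjusted p = 0.177). The call was also lost without Pro 2 (0.325), Pro 3 (0.614), Sen 1 (0.485), Sen 2 (0.154) and Sen 3 (0.346), while it was kept without both shallow lysates together (0.58, adjusted p = 0.125).

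For the other 8 members the TE estimates lay between -0.12 (TGFB2) and 0.34 (GREM1). Their intervals were wide, from -0.52 to 0.28 for TGFB2, from -0.43 to 0.37 for TGFBR2, from -0.07 to 0.74 for GREM1 and from -0.49 to 0.65 for BMP4. TE changes within these bounds could thus not be excluded at this depth. The median TE change was 0.02 over the 9 members and 0.03 over all genes.

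The number of footprints per mRNA read was also set side by side between members. It was computed as the share of Ribo-seq coding reads over the share of RNA-seq coding reads, in the 4 deeper lysates, so that transcript length cancels. Pooled over both states, INHBA had 2.21 (range over lysates, 1.70 to 2.39), higher than 95.7% of 7473 genes, followed by TGFB2 with 1.87 (1.60 to 2.22, 91.9%) and TGFBR1 with 1.48 (1.11 to 1.77, 80.6%). LTBP1 had 1.24 (66.3%), LTBP2 0.857 (36.0%) and GREM1 0.817 (32.3%). The lowest values belonged to TGFBR2 with 0.671 (21.5%), TGFB1 with 0.480 (0.426 to 0.520, 10.0%) and BMP4 with 0.408 (0.252 to 0.516, 6.5%). The order of the upper pair turned between the states. In the 2 deeper Pro lysates TGFB2 (1.90 to 2.22) lay above INHBA (1.70 to 1.75), and in the 2 deeper Sen lysates INHBA (2.29 to 2.39) lay above TGFB2 (1.60 to 2.01). TGFB1 and BMP4 were apart in Pro (0.474 to 0.520 and 0.425 to 0.443) and overlapped in Sen (0.426 to 0.506 and 0.252 to 0.516). These differences between members were not tested.

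**Figure D3:**
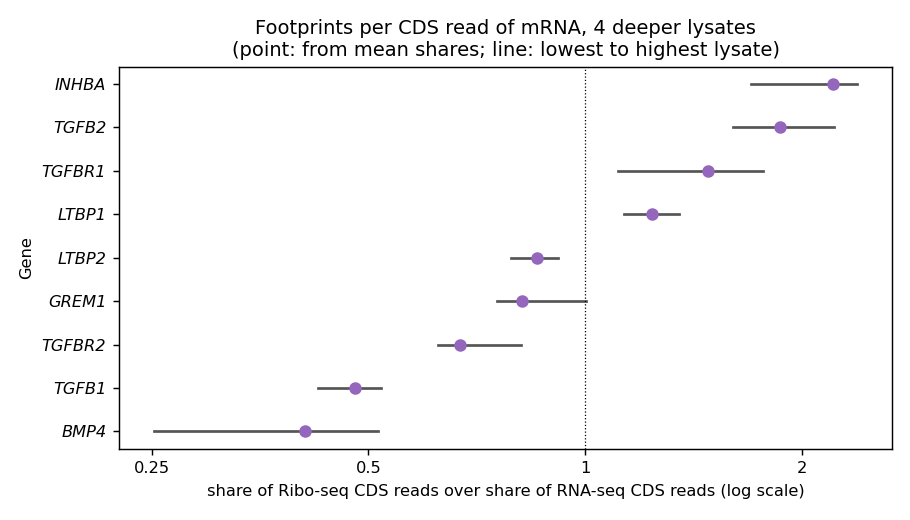
Footprints per coding read of mRNA for 9 members on a log axis, with points from the mean shares of the 4 deeper lysates and lines from the lowest to the highest lysate. INHBA and TGFB2 lie near 2, and TGFB1 and BMP4 below 0.6 in every lysate.

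Per kilobase of coding sequence, the ratio of members within a library changed between the states. TGFB2 coding reads of mRNA amounted to 0.239 ± 0.016 of those of TGFB1 in Pro and 0.745 ± 0.071 in Sen (SD, n = 3). In RPF the ratio went from 0.874 ± 0.166 to 2.80 ± 0.58, so that TGFB2 held more footprints per kilobase than TGFB1 in every Sen library. INHBA over TGFB1 rose from 0.113 ± 0.013 to 0.331 ± 0.015 in mRNA and from 0.244 ± 0.212 to 1.95 ± 0.45 in RPF. That RPF mean of Pro includes 0 in the shallow Pro 1, with 0 INHBA and 4 TGFB1 reads, beside 0.374 and 0.359 in Pro 2 and Pro 3. TGFBR2 over TGFBR1 rose from 1.87 ± 0.04 to 13.8 ± 1.3 in mRNA and from 0.964 ± 0.266 to 6.30 ± 1.84 in RPF.

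GREM1 over BMP4 was 12.7 ± 0.8 in Pro and 7.08 ± 1.2 in Sen mRNA, with no overlap, and 17.6 ± 9.2 and 20.4 ± 3.6 in RPF, where the groups overlapped. The RPF mean of Pro includes 7.10 in the shallow Pro 1, with 5 BMP4 reads, beside 21.6 and 24.1 in Pro 2 and Pro 3. The layers were not tested against each other. LTBP2 over LTBP1 was 0.220 ± 0.024 in Pro and 0.223 ± 0.021 in Sen mRNA. In two-sided exact permutation tests of the 10 ratios, each of the 7 separated ones reached p = 0.1, the smallest that 3 against 3 libraries allow, or 0.143 after Benjamini-Hochberg adjustment. Any separated ratio gets this p at this size, so the test adds nothing to the separation itself. The ratios were not among the planned tests, and they join members whose changes are given above. The exact permutation p was 0.8 for GREM1 over BMP4 in RPF and 0.9 and 1.0 for LTBP2 over LTBP1 in mRNA and RPF.

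**Figure D4:**
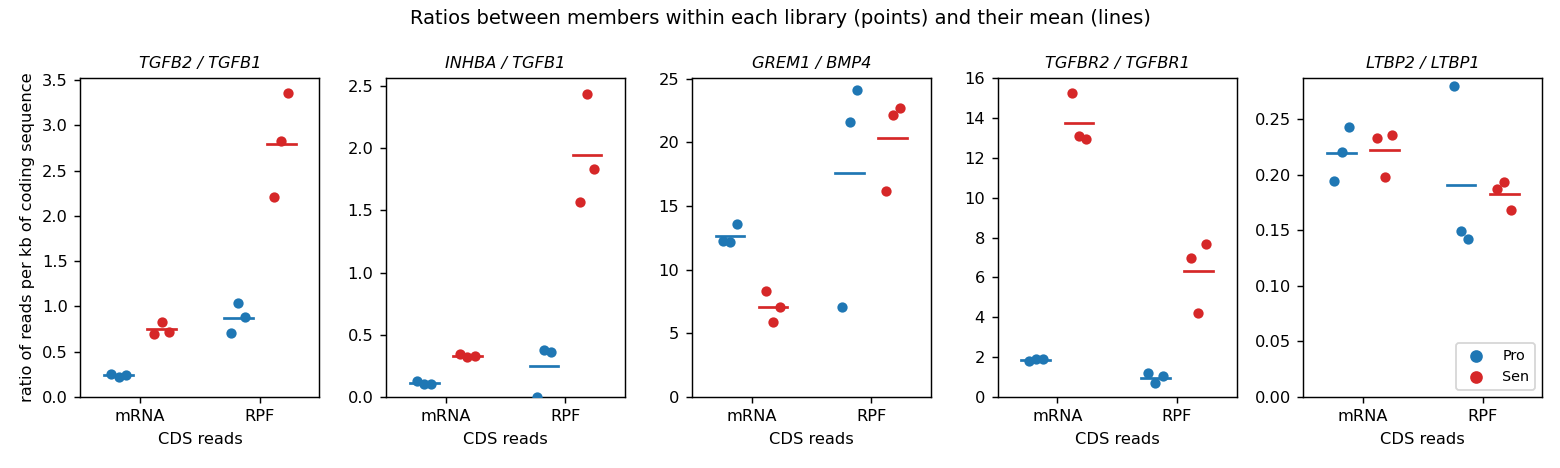
Ratios between members in each library, as reads per kilobase of coding sequence, for coding reads of RNA-seq (left in each panel) and of Ribo-seq (right), with points for libraries and lines for means on separate linear axes. The ratios to TGFB1 and the receptor ratio are higher in every Sen library than in any Pro library, and LTBP2 over LTBP1 overlaps.

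On the same per kilobase scale, GREM1 was the most abundant member in both layers, with 941 ± 39 CPM per kilobase in Pro mRNA and 454 ± 52 in Sen, and 672 ± 124 and 404 ± 85 in RPF. In Sen RPF it was followed by TGFBR2 (229 ± 21), LTBP1 (182 ± 23), TGFB2 (168 ± 43) and INHBA (115 ± 4). The libraries of TGFB2 overlapped those of TGFBR2 and of LTBP1, while INHBA lay below all of them without overlap. In Pro RPF the order was LTBP1 (157 ± 54), TGFB1 (62.9 ± 1.8), TGFBR1 (55.0 ± 17.2), TGFB2 (54.9 ± 9.6) and TGFBR2 (50.2 ± 8.9), where TGFB1 lay below LTBP1 without overlap and each of the last 4 overlapped the next. These are levels scaled to the coding reads of a library, without TMM factors.

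The distribution of mRNA reads over the transcript was compared for the 9 members with at least 50 reads in every library. GREM1 drew 78.3% ± 1.6 of its mRNA reads from the 3′ UTR in Pro and 78.0% ± 3.0 in Sen, and TGFB1 drew 36.95% ± 0.86 and 36.93% ± 1.03 from the 5′ UTR. The 3′ UTR shares overlapped between the states for all 9, against a background of 12.5% of 9974 genes not overlapping. The 5′ UTR share did not overlap for BMP4 alone, 10.5%, 11.2% and 16.3% in Pro and 7.31%, 8.39% and 6.69% in Sen, against a background of 9.27%. The exact permutation p of BMP4 was 0.1, the smallest possible, and 0.9 after adjustment over 18 shares. The number of separated shares rose from 1 to 3 without Pro 3, to 2 without Sen 1 and to 7 without Sen 2. Leaving a library out cannot undo a separation, and no background over all genes was computed for these smaller sets.

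Footprints in the 5′ UTR were counted over all 6 Ribo-seq libraries, as a share of 5′ UTR and coding footprints. The median over tested genes was 1.01%. The share was 6.36% for TGFB1 (25 of 393 reads, 95% Wilson interval 4.35 to 9.22), 6.49% for BMP4 (12 of 185, 3.75 to 10.99), 4.44% for TGFB2 (31 of 698, 3.15 to 6.24) and 3.55% for GREM1 (58 of 1632, 2.76 to 4.57). LTBP2 (1.94%, 16 of 825, 1.20 to 3.13) and TGFBR2 (1.51%, 18 of 1192, 0.957 to 2.37) also lay above the median, which the TGFBR2 interval included. INHBA (0.493%, 2 of 406, 0.135 to 1.78) and LTBP1 (0.341%, 16 of 4696, 0.210 to 0.553) lay below the median, which the INHBA interval included. TGFBR1 had 0 of 344, with an upper bound of 1.10%, and TGFB3 had 1 of 3. Of the RNA-seq reads in the same regions, the 5′ UTR held 37.1% in TGFB1, 33.9% in TGFB2, 25.7% in GREM1 and 10.5% in BMP4. It held 13.2% in TGFBR2, 3.99% in LTBP2, 1.53% in INHBA, 2.46% in LTBP1 and 3.21% in TGFBR1. The footprint shares are not scaled to these mRNA shares, so they do not rank members by upstream footprints per mRNA read. Pro 2 gave 7 of the 12 BMP4 reads, and without it the share was 3.38%. With a library left out, an alternative chosen after seeing the data, the share ranged from 3.38% to 8.33% for BMP4, 5.70% to 6.88% for TGFB1, 3.64% to 5.03% for TGFB2 and 2.70% to 4.05% for GREM1. Both INHBA reads came from Sen 1. The intervals cover counting error only, and sequence composition of the long 5′ UTRs was not tested.

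Other genes of the pathway were grouped in 7 lists of 131 genes in all. In mRNA 99 could be tested, of which 61 were higher, 25 lower and 13 not called. In RPF 36 of 70 were higher and 10 lower, and in TE 10 of 70 were higher and 1 lower. Over all genes the shares were 36.6% higher and 37.0% lower in mRNA, 27.5% and 26.9% in RPF, and 6.32% and 3.73% in TE, against which the counts of each list below are to be read. The median mRNA log2 fold change over the lists was 0.31, against -0.01 over all genes. Without TMM scaling 52 were higher and 28 lower in mRNA, and without both shallow lysates 63 and 25 of 100.

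**Figure D5:**
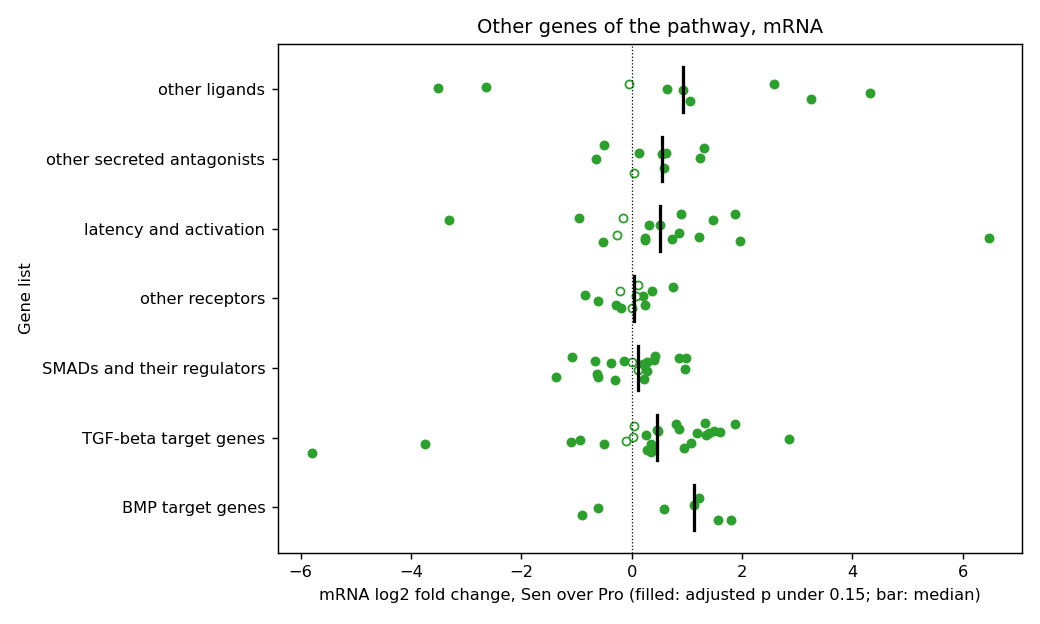
mRNA log2 fold change of Sen over Pro for each tested gene of the 7 lists, with filled points past the adjusted p of 0.15 and a bar at the median of each list. Ligands, TGF-beta targets and the latency and activation list spread widely to both sides. Receptors lie between -0.84 and 0.75, and SMADs and their regulators between -1.36 and 0.98.

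Of 26 other ligands 9 were tested in mRNA, with 6 higher and 2 lower. GDF6, a BMP-class ligand, rose from 9.90 ± 1.20 to 94.9 ± 5.2 CPM (mean ± SD, n = 3) and its relative GDF5 fell from 94.5 ± 8.0 to 8.31 ± 1.82 CPM, each a separated change (edgeR log2 fold changes 3.25 and -3.51). RPF followed for both, with log2 fold changes of 3.88 (SE 0.25) and -1.98 (SE 0.40). INHBB, the activin beta B subunit, went from 1, 2 and 2 mRNA reads in Pro to 34, 48 and 36 in Sen, and INHBE fell from 13.8 ± 1.5 to 2.17 ± 0.50 CPM. TE was higher for GDF5 (1.503, SE 0.52, edgeR adjusted p = 0.0884) and GDF15 (0.49, SE 0.19, adjusted p = 0.135). The GDF5 value rests on 92 RPF reads over all Ribo-seq libraries, with 36.6 ± 14.3 CPM in Pro and 6.12 ± 5.85 CPM in Sen. With RLE factors in place of TMM, or without TMM scaling, 1 ligand of the list was called higher in TE. The per-lysate TE of GDF15 averaged 1.07 in Pro and 0.927 in Sen with overlapping lysates, opposite in direction to the fitted change.

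Other secreted antagonists numbered 9 tested of 15 in mRNA, with 6 higher and 2 lower, and 4 of 6 were higher and 0 lower in RPF. NOG (noggin, a BMP trap) rose from 8.74 ± 0.75 to 21.9 ± 3.3 CPM and FSTL3, which binds activin, from 112.4 ± 7.8 to 265.9 ± 25.7 CPM. FSTL3 RPF rose by 1.17 on the log2 scale (SE 0.21, edgeR adjusted p = 5.05e-06), with overlapping libraries. Its mean RPF level was 96.6 ± 67.2 CPM in Pro and 108.2 ± 48.9 CPM in Sen. NOG RPF was also called higher (1.84, SE 0.42, edgeR adjusted p = 0.000242). Its mean level was 21.8 ± 26.2 CPM in Pro and 18.5 ± 16.2 CPM in Sen, in overlapping libraries and opposite in direction to the fitted change. CHRDL2 fell from 11.1 ± 1.2 to 7.93 ± 1.12 CPM.

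Among 20 genes of latency and activation, 17 were tested in mRNA, with 12 higher and 3 lower, and 9 of 14 were higher and 1 lower in RPF. The background was 36.6% higher in mRNA and 27.5% in RPF. The median mRNA log2 fold change was 0.52, and without TMM scaling 10 were higher and 5 lower. PCSK6, a proprotein convertase, went from 0, 2 and 0 mRNA reads in Pro to 62, 90 and 79 in Sen, and its relative PCSK5 rose from 3.97 ± 0.94 to 15.9 ± 1.2 CPM. ITGB8, the beta subunit of an integrin that releases latent TGF-beta, fell from 28.0 ± 1.3 to 2.83 ± 0.09 CPM, with a log2 fold change of -3.30 (SE 0.13, edgeR adjusted p = 3.12e-15). LTBP4 fell from 96.8 ± 11.9 to 50.5 ± 9.6 CPM. TE was higher for LTBP3 (0.73, edgeR adjusted p = 0.0294), BMP1 (0.59, 0.0695) and EMILIN1 (0.51, 0.0821), and lower for PCSK7 (-1.04, 0.0894). The per-lysate TE of LTBP3, EMILIN1 and PCSK7 overlapped between the states, and that of BMP1 did not. For PCSK7 it averaged -2.97 in Pro and -3.17 in Sen. The PCSK7 value rests on 88 RPF reads over all Ribo-seq libraries, with 12.8 ± 11.1 CPM in Pro and 31.6 ± 18.4 CPM in Sen.

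Of 15 other receptors 12 were tested in mRNA, with 4 higher and 4 lower, and their median log2 fold change was 0.04. Without TMM scaling that median was -0.06, with 2 higher and 4 lower. The co-receptor ENG (endoglin) rose from 237.9 ± 2.0 to 400.0 ± 30.5 CPM, with RPF up by 0.82 (SE 0.16, edgeR adjusted p = 2.16e-05), and the BMP receptor BMPR2 from 89.9 ± 9.2 to 115.9 ± 6.2 CPM. The activin type II receptors ACVR2A and ACVR2B fell, from 7.53 ± 0.31 to 4.82 ± 0.73 CPM and from 3.58 ± 1.11 to 2.03 ± 0.50 CPM. None of the 12 reached the rise of TGFBR2.

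SMADs and their regulators were tested for 19 of 20 genes in mRNA, with 9 higher and 8 lower. The inhibitory SMAD7 rose from 6.99 ± 0.85 to 13.9 ± 1.1 CPM and PMEPA1, another feedback inhibitor, from 13.8 ± 1.0 to 27.3 ± 1.0 CPM. SMAD1, a mediator of BMP signals, fell from 16.9 ± 2.3 to 6.54 ± 0.67 CPM and the repressor TGIF2 from 23.6 ± 2.3 to 10.96 ± 1.52 CPM. SMAD3, a mediator of TGF-beta signals, fell in mRNA by 0.62 (SE 0.07, edgeR adjusted p = 5.27e-08), its RPF log2 fold change was -0.18 (SE 0.17, adjusted p = 0.408) and its TE change was 0.48 (SE 0.19, adjusted p = 0.137). The list had no TE call with RLE factors in place of TMM, without TMM scaling or without both shallow lysates.

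All 27 genes of the TGF-beta target list were tested in mRNA, with 19 higher and 5 lower, and in RPF 15 of 22 were higher and 4 lower. The background was 36.6% higher in mRNA and 27.5% in RPF. The median mRNA log2 fold change was 0.45, and without TMM scaling 17 were higher and 6 lower. IGFBP3 rose from 436.5 ± 3.8 to 3165 ± 42 CPM and ANGPTL4 from 88.6 ± 1.2 to 323.0 ± 2.6 CPM. The matrix genes POSTN (periostin), from 468.3 ± 23.9 to 8.41 ± 0.16 CPM, and ELN (elastin), from 15.6 ± 2.5 to 1.14 ± 0.71 CPM, fell instead. TE was higher for POSTN (1.009, edgeR adjusted p = 0.0594), CDKN2B (1.04, 0.0807), FN1 (0.52, 0.116) and TAGLN (0.48, 0.14). The per-lysate TE of CDKN2B averaged -0.66 in Pro and -0.94 in Sen, in overlapping lysates, which is opposite in sign to its fitted change. For TAGLN the lysates overlapped as well. COL1A1 and COL1A2 were not called in mRNA, with log2 fold changes of -0.10 and 0.02.

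Of 9 BMP target genes 7 were tested in mRNA, with 5 higher and 2 lower. ID1 rose from 7.57 ± 1.44 to 26.9 ± 4.5 CPM, with RPF up by 1.60 (SE 0.34, edgeR adjusted p = 6.04e-05), and MSX2 from 4.21 ± 0.90 to 12.8 ± 0.2 CPM. ID2 fell from 29.5 ± 2.1 to 15.8 ± 1.7 CPM and the inhibitor SMAD6, which is also in the SMAD list, from 11.8 ± 1.3 to 7.71 ± 0.46 CPM.

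TGFBR2, the member with the largest mRNA change, was most like IGFBP3, EIF2AK4 and ANGPTL4 in log2 CPM over the 6 RNA-seq libraries, with Pearson r of 0.99998, 0.99989 and 0.99974. The likeness is a description over 6 libraries in which the state sets most of the pattern, and 5.22% of the genes tested had r over 0.99.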

How the data were processed

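Ribo-seq and RNA-seq libraries of proliferating and senescent IMR90 cells were grouped by their sample titles. The deposited values are estimated counts per gene and region, into which the authors had sorted the reads of each library without scaling to depth. Some were simple fractions of a read, although plain counts had been planned for, and values were rounded after regions had been summed. Tools named in the submitters' processing notes are cutadapt 1.18, Bowtie 1.0.1, SAMtools 1.8 and DESeq2 1.22.2. The build, annotation, strand rule and handling of reads with several placements are not given in the sources used here. Coding lengths and start codons come from GENCODE on GRCh37, matched by symbol.

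mRNA was the sum of 5′ UTR, CDS and 3′ UTR reads and RPF the CDS reads. Genes were tested with edgeR 4.0.16 (quasi-likelihood, filterByExpr, TMM within library type, two-sided) in R 4.3.3, and called at a Benjamini-Hochberg adjusted p under 0.15 over all genes, the rate of the published methods. TE was the interaction of library type and state with the lysate as a block. SEs and 95% intervals come from the same fits. The fits were tested on simulated data. Levels are CPM with TMM factors, and TE per lysate uses a pseudocount of 0.5. Wilson intervals cover counting error only, as PCR copies are not independent molecules. Alternatives were DESeq2 1.42.0, other scalings and filters, libraries left out, a replicate block and others given in the closing section.

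Members and lists were chosen with earlier results of these data known. Named beyond the members were, per list, the 2 highest and 2 lowest mRNA changes among called genes with separated libraries, and genes called in TE, with markers and, for the most changed member, the 3 genes most like it. No 2 libraries of a state were duplicates, their counts differing by more than sampling noise.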

Additional observations from a re-analysis of the deposited data

How the results depend on the processing

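Of the mRNA fold changes of single members, 154 values over all alternatives kept direction and side of the threshold, 4 were no longer called and 1 reversed. For RPF the numbers were 120 kept, 7 no longer called and 1 newly called, and for TE 108 kept, 14 no longer called and 24 reversed. The cause of these changes was not tested unless an alternative's own construction shows it. Called mRNA members numbered 10, and 9 to 10 with a lysate left out. They numbered 9 without TMM (TGFB1 lost), 9 with coding reads alone (BMP4 lost) and 7 of 9 tested when RNA-seq was thinned to the Ribo-seq depth. Called RPF members numbered 6, and 5 to 7 with a lysate left out. DESeq2 and the replicate block each called 4, without LTBP2 and TGFBR1. Requiring 10 counts in every library left 2 members to test and 1 called (GREM1).

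Called TE members numbered 1 (INHBA), and 0 with each lysate left out. The number was 0 at an adjusted p under 0.05, with DESeq2, with RLE factors, with library totals, with at least 1 read, with 10 counts in every library, with the replicate block, with TMM over all 12 libraries and with the analysis of partial variance. It stayed at 1 without both shallow lysates and without the lysate block. The adjusted p of the INHBA TE change ranged from 0.0928 (no lysate block) to 0.999 (DESeq2). Separated region shares numbered 1, and 1 to 7 with a library left out, where no background over all genes was computed.

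TE estimates near 0 changed sign. With a lysate left out, TGFB1 ranged from -0.184 to 0.133 (above 0 without Pro 3, Sen 2 or Sen 3), BMP4 from -0.67 to 0.289 (below 0 without Pro 3 or Sen 1), LTBP1 from -0.281 to 0.058 (above 0 without Pro 3), TGFBR1 from -0.187 to 0.171 (below 0 without Pro 1, Pro 3 or Sen 1) and TGFBR2 from -0.174 to 0.207 (above 0 without Pro 3). TGFB1 came to 0.054 without the lysate block. BMP4 came to -0.328 with DESeq2 and -0.632 with the replicate block. TGFBR1 came to -0.006 with DESeq2, -0.025 with RLE factors, -0.056 with library totals, -0.032 with at least 1 read, -0.041 with TMM over 12 libraries, -0.03 without both shallow lysates and -0.122 without the lysate block. In the analysis of partial variance, whose coefficients are not fold changes, the state term was -1.494 for BMP4, -4.819 for GREM1, -0.069 for TGFBR1 and 24.734 for TGFBR2. The mRNA change of TGFB1 was -0.081 in thinned libraries.

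Over all genes, mRNA calls fell from 9413 to 4330 after thinning. RPF calls fell from 4088 to 1164 with DESeq2, 610 with 10 counts in every library, 2681 without Sen 1 and 2336 with the replicate block. TE calls moved from 751 to 259 at an adjusted p under 0.05, 28 with DESeq2, 428 with at least 1 read, 236 with 10 counts in every library, 150 to 1146 with a lysate left out, 1183 without both shallow lysates, 1339 without the lysate block, 144 with the replicate block and 0 with the analysis of partial variance (518 at an unadjusted p under 0.05). Without TMM the median log2 fold change of all genes was -0.11 for mRNA and -0.14 for RPF, and 40.4% and 39.0% of calls were higher, against 49.8% and 50.5% with TMM. Same-numbered Pro and Sen libraries did not deviate together (r from -0.21 to 0.25 in mRNA and 0.01 to 0.03 in RPF), so the numbers were not taken to pair lysates. The replicate block changed no other call of a member than LTBP2 and TGFBR1 in RPF and INHBA in TE. The RNA-seq and Ribo-seq libraries of a lysate did not deviate together either (r from -0.046 to 0.059). The lysate block of the TE model thus rests on the protocol, by which each lysate was split, and not on these values.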
